A study of Homo sapiens with 6 samples.

Results

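Cholesterol and fatty acids are built in the cytosol and the endoplasmic reticulum from acetyl-CoA. The genes examined here were 35 genes of these routes, picked by name from the deposited expression table, which holds 35856 genes. They comprised 20 genes for enzymes of cholesterol synthesis, 9 genes for enzymes of fatty acid synthesis, elongation and desaturation, and 6 genes for the proteins that set the output of both routes or carry sterol. They were matched by gene name, and the rule uses no measured value.

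RNA was sequenced from HCCLM3, an established human hepatocellular carcinoma cell line with high metastatic potential. Group NC comprised 3 libraries of cells given an empty vector, and group LINC00862 comprised 3 libraries of cells given a vector that carries LINC00862, a long non-coding RNA. The labels give the same line for both groups and name no other treatment. They do not say whether the replicates were separate cultures, so the p-values measure only the spread between these libraries, which may be technical. Each group consists of its own cells, so that an effect of LINC00862 and any other difference between the cultures, their identity included, cannot be told apart. The identity of the line was not tested here.

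In this pathway, acetyl-CoA is joined to make mevalonate, mevalonate is turned into isoprenyl diphosphates, these are joined to squalene, and squalene is closed to lanosterol and trimmed to cholesterol. The SREBP transcription factors switch most of these genes on: when sterols in the endoplasmic reticulum are low, SCAP escorts SREBP to the Golgi for cleavage, and INSIG proteins hold both back when sterols are plentiful. Liver cells are a main site of both routes, and many carcinomas keep them active.

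LINC00862 itself was higher in the group named for it, with counts of 145, 121 and 76 against 11, 21 and 6 in NC. The mean FPKM, the fragments of a gene per unit of transcript length and of library depth, was 0.449 ± 0.120 (SD, n = 3) against 0.0507 ± 0.0343 (SD, n = 3), and the log2 fold change was 3.22 with an SE of 0.53 (adjusted p = 0.000583 by edgeR). By its NC counts alone the gene would not have passed the filter on low counts, so this call is not independent support. The library totals lay between 58241123 and 68229070 counts. The 10 most abundant genes took 8.42% to 11.7% of the counts in NC and 19.4% to 29.2% in LINC00862.

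The cells of both groups also differed far outside lipid synthesis. Of 7 hepatocyte marker genes that could be tested, 6 were higher in LINC00862 and 1, AFP, was lower, and the summed FPKM of the 9 listed markers in the table was 3.80 to 3.88 in NC and 1079 to 1323 in LINC00862. The fibrinogen genes FGB and FGG made up most of this sum, with a mean FPKM of 550.4 and 627 in LINC00862 against 1.75 and 1.94 in NC, and transferrin (TF) followed with 15.5 against 0.0369. Albumin had counts of 0, 0 and 7 in NC and 423, 394 and 282 in LINC00862, while HNF4A had 0, 0 and 4 against 34, 24 and 14, so that these defining markers were at or near 0 in NC and low in LINC00862. AMBP had no count in the NC libraries. APOH and APOA2, which could not be tested, had none there either. In LINC00862 APOH had counts of 9, 0 and 14 and APOA2 had 0, 0 and 3. Albumin, AMBP and HNF4A passed the filter on low counts only through LINC00862, and AFP only through NC. The filter thus fixed their direction, and their calls are not independent support. Over all genes tested, 34.4% were higher and 29.8% lower. Of 7 epithelial genes, 6 were higher, 1, KRT8, did not pass the test, and their summed FPKM was 194 to 287 in NC and 486 to 558 in LINC00862. Among the 6, KRT19 passed the filter on low counts only through LINC00862. Of 7 mesenchymal or fibroblast genes, 3 were lower (VIM, THY1 and AXL), 2 were higher and 2 did not pass the test, and their summed FPKM was 676 to 748 in NC and 15.7 to 20.2 in LINC00862. VIM alone had a mean FPKM of 539 in NC and 3.77 in LINC00862, while EPCAM of the epithelial genes had 0.547 and 159.8. The part of these differences in the results below was not tested. In bulk RNA, fewer cells of a type and less RNA per cell cannot be told apart.

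The synthesis genes were mostly lower in the cells with the LINC00862 vector. Of the 35 genes, all of which passed the filter on low counts, 23 were down-regulated, 6 were up-regulated and 6 did not pass the test. Over all 20741 genes tested, 64.2% passed it, with 29.8% lower and 34.4% higher, against 65.7% lower and 17.1% higher among the 35. The median log2 fold change of the 35 genes was -0.85, beside 0.11 over all genes tested. The 6 up-regulated genes were ACACB, AACS, PMVK, SREBF1, DHCR7 and FDPS, and the 6 that did not pass the test were HMGCS1, MVD, IDI1, SC5D, SREBF2 and SCD.

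The same order appeared in FPKM. For 26 genes each LINC00862 library lay below each NC library, and for 5 each lay above, while the groups overlapped for MVD, FDPS, SREBF2 and SCD. Over all genes tested, 36.6% were separated with LINC00862 lower and 34.4% with LINC00862 higher. An exact two-sided permutation test of 3 against 3 libraries can give no p below 0.1, which is the value for each separated gene. Summed over the 35 genes, FPKM was 1767, 1485 and 1602 in NC and 920.2, 959 and 710.1 in LINC00862.

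The stretches before the start sites of 7 of these genes are shown because CCAAT, a box bound by NF-Y that is often found beside SREBP sites, occurred in most of the promoters of this list. The promoter windows run from 250 bases before to 50 bases after each RefSeq start site (GRCh38.p14), and windows were given for 31 of the 35 genes. ACAT2, FDFT1, SQLE and FASN had no matching window. Each stretch reads 5′ to 3′ on the strand of its gene, and capitals mark CCAAT, its reverse complement ATTGG, the E-box CACGTG, or TCACNCCAC, a sequence like the sterol regulatory element. NSDHL (chrX:152830823-152830995, plus strand), EBP (chrX:48521605-48521794, plus), MSMO1 (chr4:165327472-165327651, plus) and INSIG1 (chr7:155297696-155297840, plus) were down-regulated. FDPS (chr1:155308678-155308831, plus) and DHCR7 (chr11:71448425-71448499, minus) were up-regulated. SREBF2 (chr22:41832960-41833015, plus) did not pass the test.
NSDHL: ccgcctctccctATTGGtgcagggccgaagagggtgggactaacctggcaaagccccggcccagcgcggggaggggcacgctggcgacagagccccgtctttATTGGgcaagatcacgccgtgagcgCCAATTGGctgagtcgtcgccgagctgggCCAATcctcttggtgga
EBP: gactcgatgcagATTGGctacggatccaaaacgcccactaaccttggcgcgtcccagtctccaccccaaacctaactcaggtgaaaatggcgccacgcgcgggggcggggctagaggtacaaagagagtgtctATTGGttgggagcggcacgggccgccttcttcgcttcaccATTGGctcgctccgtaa
MSMO1: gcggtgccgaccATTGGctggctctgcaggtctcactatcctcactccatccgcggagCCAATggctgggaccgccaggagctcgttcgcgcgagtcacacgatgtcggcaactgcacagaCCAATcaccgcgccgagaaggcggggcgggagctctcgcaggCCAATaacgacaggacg
INSIG1: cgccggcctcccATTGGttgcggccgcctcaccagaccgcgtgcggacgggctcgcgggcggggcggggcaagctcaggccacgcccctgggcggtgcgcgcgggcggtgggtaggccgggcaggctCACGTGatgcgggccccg
FDPS: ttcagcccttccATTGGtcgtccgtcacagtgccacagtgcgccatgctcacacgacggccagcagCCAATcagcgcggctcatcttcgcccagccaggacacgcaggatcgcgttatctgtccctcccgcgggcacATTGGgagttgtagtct
DHCR7: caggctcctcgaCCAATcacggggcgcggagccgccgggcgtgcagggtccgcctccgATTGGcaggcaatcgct
SREBF2: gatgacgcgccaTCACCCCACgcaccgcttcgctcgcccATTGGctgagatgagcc

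Counted on both strands, CCAAT was found in a window of 22 of the 31 genes (71.0%), beside 39.7% of the 27305 gene symbols with a window. These 22 comprised 13 of the 19 down-regulated genes with a window, 3 of the 6 up-regulated genes and 6 of the 6 that did not pass the test. The largest number in one window was 5, in NSDHL and MVK; in NSDHL the run CCAATTGG counts on both strands. CACGTG was found for 5 of 31 genes (16.1%), namely ELOVL5, INSIG1, LSS, SC5D and SCAP, beside 8.77% of all symbols. TCACNCCAC was found for 1 of 31, SREBF2, beside 1.39%. A match describes letters in the window and is not a measured binding site.

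**Figure D1:**
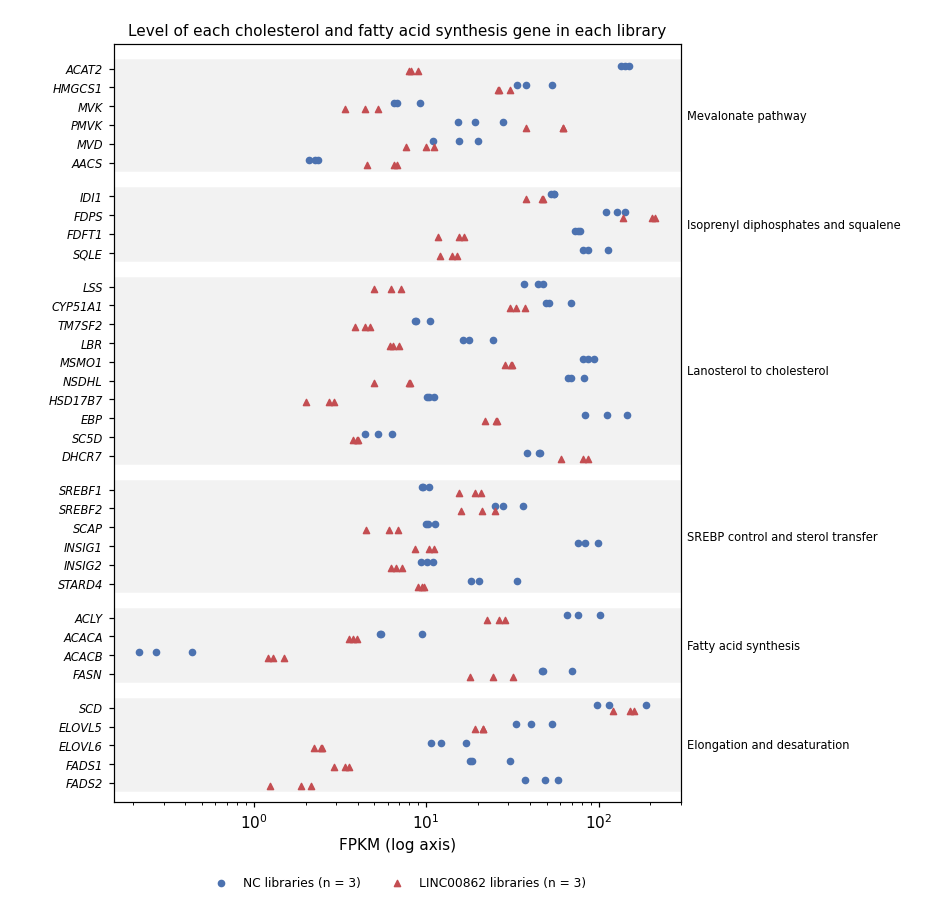
FPKM on a log10 axis for each of the 35 genes in the 3 NC and the 3 LINC00862 libraries, each point being 1 library, with genes grouped by step of the pathway. The points of the groups are separated for 31 genes and overlap for MVD, FDPS, SREBF2 and SCD.

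The mevalonate genes were called in both directions, at shares near those of all genes tested. Of 6 genes, ACAT2 and MVK were down-regulated, PMVK and AACS were up-regulated, and HMGCS1 and MVD did not pass the test, with a median log2 fold change of -0.48. The shares were 33.3% in each direction, beside 34.4% higher and 29.8% lower over all genes tested. The counts of the other steps below are to be read against the same background. ACAT2 (ENSG00000120437, chr6:159762045-159779112, plus strand), the cytosolic thiolase that joins acetyl-CoA at the first step, had the highest mean FPKM of the 35 genes in NC, with 134.9, 143.3 and 149.6. It stood at 8.14, 9.02 and 7.94 in LINC00862 and ranked 20 of 35 there. The 3 LINC00862 libraries were thus far below the lowest NC library, and the log2 fold change was -3.92 with an SE of 0.16 (adjusted p = 1.42e-07), a 15.2-fold lower level. ACAT2 overlaps TCP1 on the opposite strand, whose mean FPKM was 69.2 in NC and 13.9 in LINC00862. Whether the counting used the strand is not stated, so reads of overlapping genes may have been shared.

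HMGCS1, which condenses the thiolase product with a further acetyl-CoA, had FPKM of 53.5, 38.1 and 33.7 in NC and 26.5, 30.7 and 26.1 in LINC00862. These values were separated, while the log2 fold change of -0.40 with an SE of 0.16 missed the threshold (adjusted p = 0.055). HMGCS1 passed the test when libraries were scaled by size alone (-0.58), with limma on log2(FPKM + 1) and log2(FPKM + 0.1) (-0.55 and -0.56), and without NC replicate 3 (-0.50). MVK, the first kinase acting on mevalonate, had FPKM of 6.76, 6.53 and 9.19 against 4.40, 5.28 and 3.37, and its log2 fold change was -0.63 with an SE of 0.20 (adjusted p = 0.0224). MVK overlaps MMAB on the opposite strand, whose mean FPKM was 7.04 in NC and 3.87 in LINC00862. The call of MVK was lost when LINC00862 replicate 1 was left out (-0.63), without LINC00862 replicate 3 (-0.51), without NC replicate 3 (-0.41) and with upper quartile scaling (-0.42). PMVK, the next kinase, had 15.3, 19.2 and 28.0 in NC and 62.3, 62.2 and 37.9 in LINC00862. Its lowest LINC00862 value was above its highest NC value, and the log2 fold change was 1.52 with an SE of 0.27 (adjusted p = 0.00102). MVD, the decarboxylase that follows, had 11.03, 15.4 and 19.9 against 9.94, 11.04 and 7.61, with overlapping groups and a log2 fold change of -0.55 (SE 0.24, adjusted p = 0.0748). It passed the test with scaling by size alone (-0.69), with limma on FPKM at either pseudocount (-0.62 and -0.67), and without NC replicate 1 (-0.77). AACS, which turns ketone bodies into acetoacetyl-CoA for synthesis, had 2.255, 2.09 and 2.38 against 6.49, 6.82 and 4.53, a log2 fold change of 1.57 with an SE of 0.16 (adjusted p = 3.6e-05). AACS overlaps AC122688 on the same strand, whose mean FPKM was 0.445 in NC and 1.93 in LINC00862.

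Of the 4 genes of the isoprenyl and squalene steps, FDFT1 and SQLE were down-regulated, FDPS was up-regulated and IDI1 did not pass the test. The median log2 fold change was -1.17. IDI1, the isomerase that provides the starter unit, had FPKM of 55.1, 55.2 and 53.4 in NC and 47.1, 47.9 and 38.0 in LINC00862, with a log2 fold change of -0.13 (SE 0.13, adjusted p = 0.412). It lay lower in each LINC00862 library on the FPKM scale, and its log2 fold change changed sign, to 0.08, when libraries were scaled by their upper quartile. FDPS, which makes farnesyl diphosphate, the branch point to prenylation, had 109.8, 128.7 and 142.6 in NC and 213.5, 203.0 and 139.2 in LINC00862. LINC00862 replicate 3 lay inside the NC range and the other 2 above it. The log2 fold change of FDPS was 0.70 with an SE of 0.20 (adjusted p = 0.0121), and the call was lost without LINC00862 replicate 1 (0.60), with limma on FPKM at either pseudocount (0.52 and 0.53), and at a false discovery rate of 0.01. FDPS had the highest mean FPKM of the 35 genes in LINC00862. It overlaps RUSC1-AS1 on the opposite strand, whose mean FPKM was 8.47 in NC and 17.9 in LINC00862.

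The enzymes on either side of squalene were lower by a wide margin. FDFT1, the squalene synthase, had FPKM of 75.5, 72.6 and 77.9 in NC against 15.6, 16.5 and 11.8, a log2 fold change of -2.20 with an SE of 0.15 (adjusted p = 3.14e-06). SQLE, the oxygenase that adds the epoxide and a slow step of the pathway, had 114.2, 86.6 and 81.2 against 14.1, 15.2 and 12.04, and its log2 fold change was -2.59 with an SE of 0.15 (adjusted p = 1.17e-06). In both genes the LINC00862 libraries stood close together and far from NC. FDPS and FDFT1 act one after the other and were not among the pairs planned for comparison. In NC, FDFT1 had FPKM of 75.5, 72.6 and 77.9 where FDPS had 109.8, 128.7 and 142.6. In LINC00862, FDFT1 had 15.6, 16.5 and 11.8 where FDPS had 213.5, 203.0 and 139.2.

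The steps around lanosterol and from it to cholesterol were mostly lower. Of 10 genes, 8 were down-regulated, 1 (DHCR7) was up-regulated and 1 (SC5D) did not pass the test, and the median log2 fold change was -1.37. The shares were 80% lower and 10% higher, beside 29.8% and 34.4% over all genes tested. LSS, which closes the epoxide to lanosterol, had FPKM of 47.9, 36.8 and 44.9 in NC and 6.29, 7.19 and 4.98 in LINC00862, a log2 fold change of -2.64 with an SE of 0.16 (adjusted p = 1.51e-06). NSDHL (ENSG00000147383, chrX:152830967-152869363, plus strand), which oxidises and decarboxylates the methyl groups at C-4, had 68.9, 66.4 and 82.7 against 7.96, 8.03 and 4.96. Its log2 fold change was -3.22 with an SE of 0.21 (adjusted p = 1.95e-06), a 9.32-fold lower level and the largest fall among these 10 genes. HSD17B7, which acts beside NSDHL, had 10.1, 11.2 and 10.3 against 2.73, 2.94 and 2.02 (log2 fold change -1.87, SE 0.16, adjusted p = 1.22e-05). HSD17B7P2, a pseudogene named for it, had a mean FPKM of 2.73 in NC and 1.65 in LINC00862, so that part of the HSD17B7 value is uncertain.

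MSMO1, the oxidase that starts removal of the same methyl groups, had FPKM of 93.7, 80.9 and 87.3 in NC against 31.5, 30.9 and 28.6 (log2 fold change -1.35, SE 0.13, adjusted p = 2e-05). EBP, the sterol isomerase, had 83.8, 112 and 145.5 against 25.4, 25.7 and 21.9, with a wide spread in NC that stayed above LINC00862, and a log2 fold change of -2.07 (SE 0.23, adjusted p = 5.66e-05). CYP51A1, which removes the methyl group at C-14, had 68.9, 51.9 and 49.5 against 33.1, 37.6 and 30.5. Its log2 fold change of -0.57 (SE 0.14, adjusted p = 0.00638) was the smallest of the 8 falls. LBR and TM7SF2 both hold a sterol reductase for the following step, LBR also being a protein of the inner nuclear membrane. LBR had 24.4, 17.7 and 16.3 against 6.19, 6.98 and 6.41 (log2 fold change -1.39, SE 0.16, adjusted p = 5.66e-05), and TM7SF2 had 8.70, 8.59 and 10.6 against 4.44, 4.735 and 3.87 (-0.93, SE 0.16, adjusted p = 0.000833).

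SC5D, the desaturase that makes the substrate of DHCR7, had FPKM of 6.35, 5.28 and 4.40 in NC and 4.02, 3.97 and 3.76 in LINC00862, with a log2 fold change of -0.27 (SE 0.14, adjusted p = 0.135). Its groups were separated with LINC00862 lower, and it passed the test when libraries were scaled by size alone (-0.44). DHCR7, which reduces 7-dehydrocholesterol to cholesterol and whose substrate is also the precursor of vitamin D, had 46.0, 38.3 and 45.4 against 81.3, 87.1 and 60.9. Each LINC00862 library lay above each NC library, and the log2 fold change was 0.99 with an SE of 0.15 (adjusted p = 0.000441). DHCR7 (chr11:71428193-71452868, minus strand) overlaps AP002387 on the opposite strand, whose mean FPKM was 0.981 in NC and 14.7 in LINC00862. DHCR7 and LSS, compared after their values were seen, had a ratio of FPKM of 0.961, 1.04 and 1.011 in NC and 12.9, 12.1 and 12.2 in LINC00862. They stood level in the control cells and an order of magnitude apart with the LINC00862 vector.

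Among the 6 genes that control the pathway or carry sterol, INSIG1, INSIG2, SCAP and STARD4 were down-regulated, SREBF1 was up-regulated and SREBF2 did not pass the test, with a median log2 fold change of -0.55. INSIG1 (ENSG00000186480, chr7:155297776-155310233, plus strand), the anchor that retains SCAP and is itself a target of SREBP, had FPKM of 99.97, 76.3 and 83.4 in NC and 11.05, 10.4 and 8.66 in LINC00862. Its log2 fold change was -2.93 with an SE of 0.15 (adjusted p = 4.72e-07), a 7.64-fold lower level. INSIG2, the related anchor, had 11.03, 10.1 and 9.32 against 6.72, 7.21 and 6.29. The groups were separated by a narrow gap, and the log2 fold change of -0.42 (SE 0.13, adjusted p = 0.0177) lost its call without LINC00862 replicate 1 (-0.40), without LINC00862 replicate 2 (-0.43), without NC replicate 2 (-0.40) and with upper quartile scaling (-0.20). SCAP, the escort, had 10.2, 10.02 and 11.3 against 6.09, 6.87 and 4.49 (log2 fold change -0.69, SE 0.16, adjusted p = 0.00489). STARD4, which moves cholesterol between membranes, had 33.8, 20.3 and 18.3 against 8.96, 9.51 and 9.74 (log2 fold change -1.16, SE 0.20, adjusted p = 0.000874). STARD4 overlaps STARD4-AS1 on the opposite strand, whose mean FPKM was 0.849 in NC and 0.0812 in LINC00862.

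The transcription factor genes differed from each other. SREBF1 encodes SREBP-1, which acts mainly on fatty acid genes, and its FPKM was 9.59, 9.51 and 10.4 in NC and 19.3, 20.9 and 15.6 in LINC00862. Each LINC00862 library was above the NC range, and the log2 fold change was 1.08 with an SE of 0.14 (adjusted p = 0.000168). SREBF1 overlaps RAI1 on the opposite strand, whose mean FPKM was 3.6 in NC and 2.5 in LINC00862. SREBF2 encodes SREBP-2, which acts mainly on sterol genes, and it had 36.35, 25.1 and 27.9 against 21.1, 25.1 and 16.005. Its groups overlapped and its log2 fold change of -0.35 (SE 0.17, adjusted p = 0.103) did not pass the test. These are transcript levels, and cleavage of the SREBP proteins was not measured here.

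Fatty acid synthesis was lower at 3 of its 4 genes, ACLY, ACACA and FASN, and higher at ACACB, with a median log2 fold change of -0.82. ACLY, which splits citrate into cytosolic acetyl-CoA for both routes, had FPKM of 101.4, 76.5 and 66.1 in NC against 26.5, 28.7 and 22.6 (log2 fold change -1.47, SE 0.16, adjusted p = 5.04e-05). FASN, the synthase that makes palmitate, had 70.1, 47.2 and 47.8 against 24.3, 32.1 and 17.9 (log2 fold change -0.98, SE 0.21, adjusted p = 0.00259). ACACA, the cytosolic carboxylase that makes malonyl-CoA for synthesis, had 9.43, 5.37 and 5.49 against 3.75, 3.98 and 3.57. Its log2 fold change was -0.65 with an SE of 0.19 (adjusted p = 0.0145) and lost its call without LINC00862 replicate 1 (-0.63) and with upper quartile scaling (-0.43). ACACB (chr12:109116595-109268226, plus strand), the carboxylase at the mitochondrial membrane whose malonyl-CoA restrains fatty acid oxidation, was the least abundant of the 35 genes in both groups. It had FPKM of 0.436, 0.270 and 0.217 in NC and 1.21, 1.499 and 1.2997 in LINC00862, a log2 fold change of 2.30 with an SE of 0.24 (adjusted p = 4.18e-05) and the largest rise of the list, 4.91-fold. On the scale of log2(FPKM + 1), where so low a gene is compressed, the difference was 0.84 and passed the test.

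Elongation and desaturation held the largest fall of the 35 genes. Of 5 genes, 4 were down-regulated and SCD did not pass the test, and the median log2 fold change was -2.28. FADS2 (ENSG00000134824, chr11:61792980-61867354, plus strand), the Δ6 desaturase at the entry to the polyunsaturated fatty acids, had FPKM of 58.2, 37.7 and 49.2 in NC and 1.89, 2.14 and 1.24 in LINC00862. The log2 fold change was -4.61 with an SE of 0.23 (adjusted p = 4.55e-07), a 24.4-fold lower level, and FADS2 moved from rank 14 to rank 34 of the 35 mean FPKM levels. FADS1 (chr11:61799627-61829318, minus strand), the Δ5 desaturase, had 30.7, 18.5 and 18.1 against 3.39, 3.57 and 2.92 (log2 fold change -2.58, SE 0.19, adjusted p = 5.01e-06). As annotated in the deposited table, FADS1 and FADS2 overlap on opposite strands. FADS2 also overlaps FEN1 on the same strand, whose mean FPKM was 87.0 in NC and 13.9 in LINC00862.

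ELOVL6, which extends palmitate to stearate, had FPKM of 17.0, 12.2 and 10.6 in NC against 2.48, 2.47 and 2.25 (log2 fold change -2.28, SE 0.17, adjusted p = 4.21e-06). ELOVL5, which extends polyunsaturated chains, had 53.5, 40.6 and 33.1 against 21.3, 21.5 and 19.3 (log2 fold change -0.85, SE 0.16, adjusted p = 0.00134). SCD, the Δ9 desaturase that makes oleate, had 188.1, 98.4 and 115.5 in NC and 151.3, 160.4 and 122.0 in LINC00862. Its groups overlapped, NC replicate 1 being the highest of the 6 libraries, and the log2 fold change of 0.30 (SE 0.21, adjusted p = 0.251) did not pass the test. Without NC replicate 1 SCD passed it, at 0.55. SCD ranked second of the 35 mean FPKM levels in both groups.

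The libraries within a group were not interchangeable for these genes. NC replicate 1 was the highest NC library for 21 of the 35 genes. LINC00862 replicate 2 was the highest of its group for 28 genes and LINC00862 replicate 3 the lowest for 32. FPKM is not scaled for the share of counts that a few abundant genes take. The 10 most abundant genes took 29.2% in LINC00862 replicate 3, beside 20.2% and 19.4% in LINC00862 replicates 1 and 2. The part of this share in the order was not tested, and the order was not counted over all genes. The median coefficient of variation of FPKM over the 35 genes was 18.8% in NC and 12.3% in LINC00862. In NC replicate 1 the deviation from the group mean had a Spearman correlation of 0.54 with transcript length over the 35 genes, beside -0.41 and -0.42 in the other NC libraries. In LINC00862 replicates 1, 2 and 3 it was -0.24, 0.21 and 0.03. Length was read from the ratio of count to FPKM, so that FPKM enters both quantities. Deviations from a shared group mean are tied to each other, so a positive value in 1 library pushes the others down. These points share libraries, and the part of transcript length in the NC spread was not tested.

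Pairs of related enzymes were compared by the ratio of their FPKM, which is per length and is taken within a library. The ratio of INSIG1 to INSIG2 was 9.06, 7.52 and 8.95 in NC and 1.64, 1.44 and 1.38 in LINC00862, a difference of -2.52 in the mean log2 ratio. The ratio of SREBF1 to SREBF2 was 0.264, 0.379 and 0.372 against 0.916, 0.832 and 0.974, a difference of 1.44. SREBF2 thus exceeded SREBF1 in all 6 libraries, by less in LINC00862. The ratio of ACACA to ACACB was 21.6, 19.9 and 25.3 against 3.10, 2.65 and 2.75, a difference of -2.97. The ratio of FADS1 to FADS2 was 0.529, 0.490 and 0.368 against 1.80, 1.67 and 2.34, a difference of 2.07, so that the order of the desaturase genes turned. The ratio of ELOVL5 to ELOVL6 was 3.15, 3.32 and 3.11 against 8.56, 8.71 and 8.59, a difference of 1.43. The ratio of TM7SF2 to LBR was 0.356, 0.485 and 0.648 against 0.717, 0.678 and 0.604, a difference of 0.46 with overlapping groups. Of these 6 pairs, 5 were separated, with an exact two-sided permutation p of 0.1, the smallest possible with 3 libraries a group, and 0.12 adjusted over the 6 pairs. TM7SF2 to LBR had an exact permutation p of 0.2, also 0.2 after adjustment.

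Genes beside the pathway were read from lists of neighbouring steps. Over 70 such genes that passed the filter on low counts, 27 were up-regulated, 27 were down-regulated and 16 did not pass the test, the median log2 fold change being 0.08. The shares called were 38.6% in each direction, beside 34.4% higher and 29.8% lower over all genes tested, and the counts of the single lists below are to be read against the same background. Of 13 genes of SREBP processing and sterol sensing, 7 were up-regulated and 4 were down-regulated, with a median of 0.60. The largest rise was MYLIP, a ubiquitin ligase induced by sterols through LXR, with FPKM of 1.55, 1.63 and 1.36 in NC and 9.60, 8.96 and 9.22 in LINC00862 (log2 fold change 2.79, SE 0.16, adjusted p = 1.13e-06). The largest fall was ERLIN1, a protein of the endoplasmic reticulum that binds cholesterol, with 30.2, 18.4 and 20.8 against 5.11, 5.84 and 4.12 (-2.02, SE 0.19, adjusted p = 1.72e-05).

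Of 9 genes of the isoprenoid branch, which leads to ubiquinone, dolichol and prenyl groups, 2 were up-regulated, 2 were down-regulated and 5 did not pass the test, with a median of 0.01 that became -0.15 when libraries were scaled by size alone. The share of 22.2% in each direction was below that of all genes tested. GGPS1, which makes geranylgeranyl diphosphate, had FPKM of 6.45, 6.98 and 5.53 in NC and 11.5, 12.2 and 11.8 in LINC00862 (log2 fold change 1.08, SE 0.15, adjusted p = 0.000201). COQ2, which attaches the ubiquinone side chain, had 13.6, 15.9 and 15.4 against 4.47, 4.975 and 4.57 (-1.51, SE 0.16, adjusted p = 3.63e-05).

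Of 13 genes of sterol storage, transport and breakdown, 11 could be tested. The test placed 3 higher and 7 lower, with a median of -0.85. Among these calls, ABCG1 passed the filter on low counts only through LINC00862 and CH25H only through NC. Both are named only for this, and their calls are not independent support. CYP7B1, which hydroxylates oxysterols on the way to bile acids, had counts of 0, 0 and 4 in NC and 149, 170 and 174 in LINC00862 (adjusted p = 8.39e-05). CYP7B1 passed the filter on low counts only through LINC00862, so the filter fixed its direction and its call is not independent support. CYP27A1, the mitochondrial sterol 27-hydroxylase, had FPKM of 0.919, 0.933 and 0.850 against 0.0473, 0.0411 and 0.0592 (log2 fold change -3.95, SE 0.37, adjusted p = 1.87e-05). Its counts in LINC00862 were 11, 9 and 12, and it passed the filter on low counts only through NC. Its call is thus not independent support either, and both bile acid enzymes lay at low levels. Of 8 tested genes of substrate and NADPH supply, 3 were up-regulated and 4 were down-regulated, with a median of -0.22. MLYCD, which degrades malonyl-CoA, had 0.192, 0.139 and 0.135 against 0.974, 1.05 and 0.725 (log2 fold change 2.73, SE 0.21, adjusted p = 6.19e-06).

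Of 13 other genes of fatty acid elongation and desaturation, 8 were down-regulated, 3 were up-regulated and 2 did not pass the test, with a median of -1.57. Among these calls, ELOVL3, which rose, would not have passed the filter on low counts by NC alone. HACD4, which fell, would not have passed it by LINC00862 alone. Both are named only for this, and their calls are not independent support. SCD5, a Δ9 desaturase related to SCD, had FPKM of 9.89, 7.87 and 8.66 in NC and 0.191, 0.257 and 0.257 in LINC00862, the largest fall of the list (log2 fold change -5.04, SE 0.21, adjusted p = 1.58e-07). ELOVL7, an elongase of saturated chains, had 0.793, 0.586 and 0.532 against 9.96, 10.1 and 9.76, the largest rise (4.14, SE 0.17, adjusted p = 1.76e-07). SCD5 thus lay lower in each LINC00862 library while SCD overlapped between the groups.

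**Figure D2:**
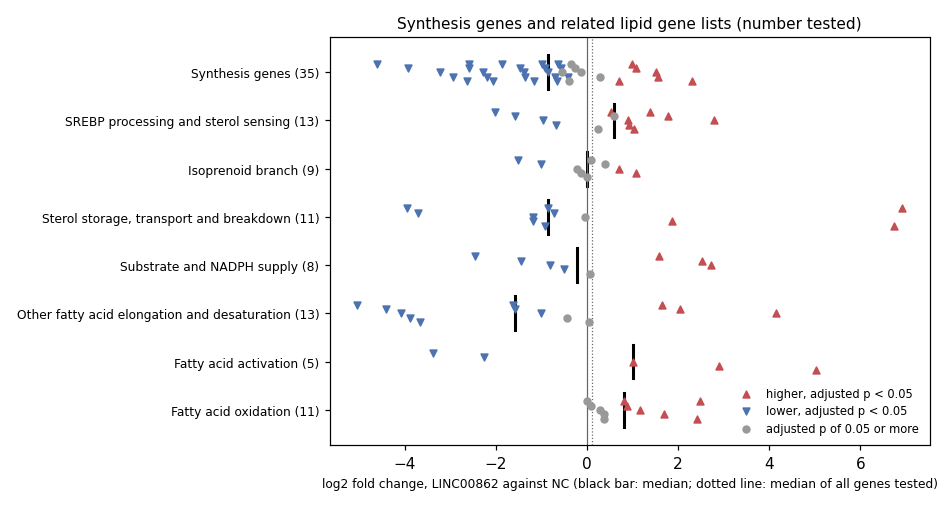
Log2 fold change, LINC00862 minus NC, on the horizontal axis for each tested gene of the 35 and of the lists of neighbouring steps, with 1 row of points per list. The median is -0.85 for the 35 genes and 0.60 for SREBP processing and sterol sensing, and each list of neighbouring steps other than fatty acid oxidation holds called genes on both sides of 0.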

How the data were processed

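RNA-seq libraries of HCCLM3 cells, 3 of group NC and 3 of group LINC00862, were analysed from 1 table, grouped by their labels. Per the labels, poly(A) RNA was sequenced in strand-marked libraries with molecular identifiers. The authors deposited counts per gene, not normalized, and FPKM, fragments scaled by transcript length and mapped fragments. The submitters' processing notes name hg38, cutadapt 1.9, HISAT2 2.0.4, UMI-tools, StringTie 1.3.4d, DESeq2 and edgeR. Their roles and use of strand in counting are not given in the sources used here.

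Counts were compared with edgeR 4.0.16 in R 4.3.3 (filterByExpr, TMM, quasi-likelihood test, Benjamini-Hochberg over 20741 genes, false discovery rate 0.05). SEs were derived from the test statistic. FPKM values were set side by side by library and compared by exact permutation with scipy 1.17.1. The script was tested on simulated data. Alternatives used DESeq2 1.42.0, limma 3.58.1 on log2(FPKM + 1) and log2(FPKM + 0.1), other scalings, no filter, a replicate block, left-out libraries, a fold of 2 and a false discovery rate of 0.01. Full statistics were set for called genes with the largest changes, at most 8 in each direction, and for family pairs. Of each neighbouring list, the largest called rise and fall are named, except 1 that is not reported here. Genes and lists were chosen with earlier results of these data known. Protein identities of the pairs were not computed. Promoters are from RefSeq. SPRING1 was found under its former symbol, and AHSG was not analysed here.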

Additional observations from a re-analysis of the deposited data

How the results depend on the processing

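With 3 libraries a group, single-gene permutation p-values cannot pass 0.05. Libraries of a group differed beyond counting error (chi-square per degree of freedom of 18.1 to 229), so the precision rests on the spread between 3 libraries rather than on depth. Of 525 single-gene alternatives, 483 kept direction and call, 31 lost the call, 10 gained it and 1 turned: IDI1 went from -0.13 to 0.078 with upper quartile scaling. Down-regulated genes of the 35 numbered 23 with DESeq2 and without the filter, 26 by library size alone, 25 with limma on FPKM at either pseudocount, and 20 with upper quartile scaling or at a false discovery rate of 0.01. Up-regulated genes numbered 5 or 6 under these. Tested against a fold of 2, 14 were down-regulated, 3 were up-regulated, and 8010 of all genes were called against 13321. Leaving out 1 library gave 20 to 24 down-regulated, 5 to 7 up-regulated and 12063 to 14285 called in all. By library size alone the median log2 fold change was -0.05 over all genes and -1.02 over the 35. With TMM these were 0.11 and -0.85, with DESeq2 0.16 and -0.80, and with the upper quartile 0.32 and -0.63. Most of the lost calls concerned MVK, INSIG2, FDPS and ACACA; the cause was not tested.

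Same-numbered libraries did not deviate together (correlations of -0.05, -0.03 and -0.01), and no NC library correlated best with its own number. With the replicate block, 21 genes were down-regulated and 6 up-regulated, the calls of MVK and INSIG2 being lost, and 12098 genes were called in all.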

Other observations

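Genes that use fatty acids were read beside those that make them. Of 11 genes of fatty acid oxidation, edgeR called 6 up-regulated and 0 down-regulated, and 5 did not pass the test, with a median log2 fold change of 0.80, where 34.4% of all tested genes were up-regulated and 29.8% down-regulated. At an unadjusted p under 0.05 the count of falls was also 0, as it was with DESeq2, which called 8 up-regulated, and with limma on FPKM, which called 5. ACADM, the medium-chain acyl-CoA dehydrogenase, had FPKM of 7.77, 7.27 and 6.10 in NC and 34.0, 35.6 and 34.7 in LINC00862 (log2 fold change 2.48, SE 0.14, adjusted p = 9.63e-07). The summed FPKM of the 11 genes was 189.1 to 193.8 in NC and 243 to 306 in LINC00862.

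The acyl-CoA synthetases, which activate fatty acids for either fate, split. Of 5 genes, 3 were up-regulated and 2 were down-regulated, with a median of 1.02. ACSL6 had counts of 2, 7 and 0 in NC and 95, 82 and 108 in LINC00862 (adjusted p = 0.000518). ACSL6 passed the filter on low counts only through LINC00862, so the filter fixed its direction and its call is not independent support. ACSL1, named here after its values were seen, had FPKM of 2.44, 1.75 and 1.51 against 13.2, 14.0 and 10.5 (log2 fold change 2.90, SE 0.18, adjusted p = 1.62e-06). ACSL5 had 3.43, 2.48 and 2.09 against 0.272, 0.232 and 0.161 (-3.39, SE 0.28, adjusted p = 8.25e-06).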
